A study of Mus musculus with 8 samples.

Results

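Pupil size is set by a pair of opposing smooth muscles, and the data described here set irises held wide by eye drops directly against irises held narrow by eye drops, within each cell type. They are single nucleus RNA-seq profiles of adult mouse irises, cut out together with some of the adjoining ciliary body. Of 8 libraries, the 5 drug-treated ones entered the direct comparison: 2 from dilated irises (7321 and 3706 nuclei) and 3 from constricted irises (4232, 1274 and 3459 nuclei), together 19992 of 34357 nuclei. The other 3 libraries, labelled control, came from untreated irises and showed whether a transcript moved in the same direction under both drops. Unique molecular identifiers (UMIs, counts of captured RNA molecules) were summed per library and per deposited cell type, and all 22873 genes of the deposited matrices were considered.

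Each library pooled 5 or 6 irises of female mice, given the genotype WT in the labels and described in the study's methods as albino and 6 to 8 weeks old. Dilated irises had received 5% phenylephrine, an alpha-1 adrenergic agonist, and 1% cyclopentolate, a muscarinic antagonist, every hour in the dark. Constricted irises had received 5% pilocarpine, a muscarinic agonist, every hour in the light. Both were collected 6.5 hours after the first drop. The drops and the lighting changed together, so their parts cannot be told apart. Each library is a pool of animals, so the spread between libraries is a spread between pools.

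The dilator muscle is a sheet of contractile pigmented epithelium that spreads radially through the iris and pulls the pupil open when noradrenaline acts on alpha-1 receptors. The sphincter is a ring of smooth muscle around the pupil that closes it when acetylcholine acts on muscarinic receptors. The iris pigment epithelium (iris PE) lies behind the dilator as the second layer of the same neuroepithelium, and the stroma in front is loose connective tissue with vessels and nerves. Immediate early genes such as Fos and Egr1 are transcribed within minutes of a stimulus and need no new protein. Cyclic nucleotide phosphodiesterases break down cAMP and cGMP, second messengers that relax smooth muscle and that, through the factor CREB, act on genes with a cAMP response element.

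The deposited names held up against their marker genes with some exceptions. The summed markers of dilator muscle, sphincter 1, stroma 1, stroma 2, leukocytes and endothelial cells were highest in the nuclei of that name. Those of sphincter 2, iris PE and ciliary body epithelium (CBE) were second highest in theirs. The ciliary body (CB) markers ranked only 6 in the CB nuclei. The summed CBE markers had a median over libraries of 6210 CPM (UMIs scaled to 1000000 UMIs of that cell type in the library) in nuclei named CB and 1150 in nuclei named CBE, and the CB markers 1790 and 3560. These values go against both names, which are used here only as the deposited annotation gives them. Library totals ran from 5189437 to 25136427 UMIs. Median mitochondrial shares per library lay between 0.022% and 0.044% in 7 libraries and at 0.073% in dilated 1. Of the cell barcodes, 63 occurred in both control 1 and dilated 1, and other library pairs shared at most 18. Leaving out the nuclei with shared barcodes gave 1606 called genes in dilator muscle in place of 1610.

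The regions upstream of 5 genes that were higher in dilated irises are shown because these genes rose in several cell types, and because their letters let a reader look for the response element named above. Each line holds 250 bases before a transcription start from RefSeq on the build GRCm38.p6, read 5′ to 3′ on the strand of the gene. Capitals mark TGACG, the core of the cAMP response element, on either strand, and GCGNGGGCG, the site of EGR factors, on either strand; the full element TGACGTCA holds the core on both strands.

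Btg2 (chr1:134079156-134079405, minus strand): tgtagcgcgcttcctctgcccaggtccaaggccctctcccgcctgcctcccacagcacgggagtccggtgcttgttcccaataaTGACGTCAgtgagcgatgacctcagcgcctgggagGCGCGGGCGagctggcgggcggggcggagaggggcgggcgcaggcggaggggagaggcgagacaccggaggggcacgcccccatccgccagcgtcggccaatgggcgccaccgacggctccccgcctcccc

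Junb (chr8:84978749-84978998, minus strand): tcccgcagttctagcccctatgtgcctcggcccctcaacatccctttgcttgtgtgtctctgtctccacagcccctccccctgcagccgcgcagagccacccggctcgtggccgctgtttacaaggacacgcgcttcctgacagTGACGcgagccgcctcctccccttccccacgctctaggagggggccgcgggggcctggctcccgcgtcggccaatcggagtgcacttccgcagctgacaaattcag

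Fos (chr12:85473640-85473889, plus strand): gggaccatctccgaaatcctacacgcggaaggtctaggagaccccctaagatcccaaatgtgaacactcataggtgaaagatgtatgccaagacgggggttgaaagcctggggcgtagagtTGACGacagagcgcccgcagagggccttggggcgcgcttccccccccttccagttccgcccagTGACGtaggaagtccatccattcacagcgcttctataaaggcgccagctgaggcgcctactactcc

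Nr4a1 (chr15:101266596-101266845, plus strand): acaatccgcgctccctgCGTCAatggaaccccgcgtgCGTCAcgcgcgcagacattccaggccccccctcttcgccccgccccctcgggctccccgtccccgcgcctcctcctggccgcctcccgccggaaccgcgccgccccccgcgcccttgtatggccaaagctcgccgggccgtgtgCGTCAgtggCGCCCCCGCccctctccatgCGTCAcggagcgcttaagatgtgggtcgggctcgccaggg

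Pde10a (chr17:8801495-8801744, plus strand): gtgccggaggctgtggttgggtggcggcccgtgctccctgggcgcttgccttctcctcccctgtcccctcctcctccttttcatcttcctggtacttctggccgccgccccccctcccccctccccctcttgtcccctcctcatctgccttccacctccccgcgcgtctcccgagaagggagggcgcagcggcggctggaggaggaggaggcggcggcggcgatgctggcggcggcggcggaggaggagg

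Btg2 held 1 full element and 1 EGR site, Junb 1 core, Fos 2 cores, and Nr4a1 4 cores and 1 EGR site. The letters were not in the Pde10a window nor in that of a second Pde10a start further downstream, which says nothing about binding elsewhere. Both Pde10a windows lie inside the annotated span of the gene, and the region before its 5′ end was not examined. Among genes with a window, the core stood in 33.1% of the 650 genes higher in dilated dilator muscle and 19.5% of the 527 lower ones, beside 28.5% of the 11177 tested there and 19.8% of all 27025 genes. EGR sites stood in 15.5%, 10.2%, 10.0% and 5.33% of the same sets, and the full element in 3.54%, 2.09%, 2.84% and 1.77%. Letters of 2 further sites, not marked above, were counted as well. The AP-1 site TGANTCA stood in 8.15%, 4.74%, 5.72% and 7.82%. The CArG box (CC, then letters A or T, then GG) stood in 2.31%, 1.14%, 1.42% and 1.62%. A gene with several windows was counted where any of them held the letters, and the sets were not matched for windows per gene. These shares describe letters, with no test.

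A gene was called where its log2 fold change was past 0.6 in either direction and its adjusted p was below 0.05 (edgeR's quasi-likelihood test with Benjamini-Hochberg adjustment over all genes tested in that cell type, fitted on all 8 libraries). Dilator muscle held most of the calls: 1610 of 15395 genes tested, or 10.5%, of which 861 (5.59%) were higher and 749 (4.87%) lower in dilated irises. In sphincter 1, 263 of 7112 genes were called (3.7%), 74 higher (1.04%) and 189 lower (2.66%). Sphincter 2 had 164 of 6691 (2.45%), with 65 higher and 99 lower. Iris PE had 95 of 14128 (0.672%), with 58 higher and 37 lower. The stromal types had few calls, 39 of 8911 in stroma 1 (0.438%) and 68 of 12788 in stroma 2 (0.532%). CB had 7 (0.0931%), CBE 10 (0.122%) and leukocytes 2 (0.0661%). No gene was called in endothelial cells by edgeR, where 69 of 1352 genes had an unadjusted p under 0.05, nor by DESeq2, where 39 did. The cell types differ in nuclei and depth, from 7249 dilator nuclei to 124 endothelial nuclei in the 5 libraries, and the counts were not compared by a test across cell types. Leaving out dilated 2 gave 873 calls in dilator muscle, 111 in sphincter 1 and 53 in sphincter 2, and leaving out dilated 1 gave 122 in sphincter 1. Iris PE had 22 calls without constricted 2, 32 without dilated 2 and 46 without dilated 1.

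**Figure D1:**
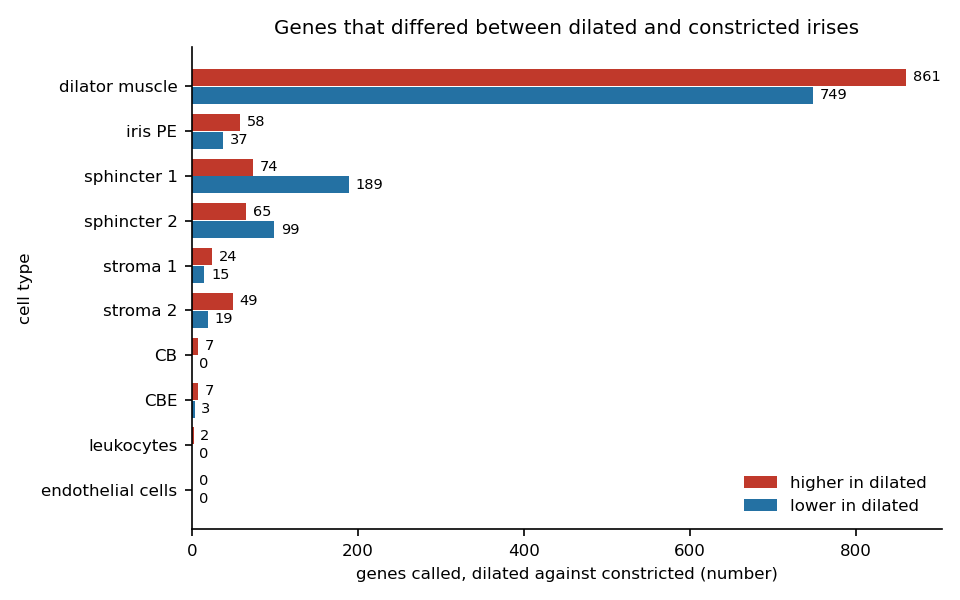
Number of genes called between dilated and constricted irises in each cell type (horizontal axis, genes), in red those higher and in blue those lower in the 2 dilated libraries than in the 3 constricted ones. Dilator muscle holds 861 and 749, and sphincter 1, with 74 and 189, has more genes lower than higher.

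The direct contrast lay mostly on the dilated side in dilator muscle. The 861 genes higher in dilated nuclei had a median log2 change of 1.14 against constricted, 1.16 against control, and 0.01 for constricted against control. For the 749 lower genes the medians were -1.07, -1.03 and 0.03. These contrasts share libraries, so the medians are set side by side as a description. On their own, dilated against control gave 2054 calls (13.3%) in dilator muscle, and constricted against control gave 1 (0.0065%), with 630 genes at an unadjusted p under 0.05. In sphincter 1 the medians were 1.49, 0.90 and -0.61 for the higher genes and -1.48, -1.13 and 0.44 for the lower ones, which puts control between the treated groups. These genes were picked for dilated against constricted in the same libraries, which can push their constricted values away from control. Constricted against control called none of 7112 genes in sphincter 1. Scaling by total UMIs in place of TMM (edgeR's default scaling) moved the median log2 change of all dilator genes by -0.18 and gave 587 higher and 1258 lower calls.

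Summed marker levels in dilator muscle nuclei were lower in the dilated libraries for several lists. Its own 8 markers ran from 4050 to 4280 CPM in dilated and from 5040 to 5740 in constricted libraries, and the 6 iris PE markers from 2820 to 2900 against 4180 to 4340. The 5 sphincter 2 markers ran from 1920 to 2410 against 3280 to 3580, the 5 CB markers from 2670 to 2890 against 3640 to 3990, and the 6 stroma 1 markers from 659 to 788 against 890 to 1130. The Schwann list (19.2 to 28.3 against 30.3 to 49.9) and the mural cell list (15 to 20.6 against 21.7 to 30.1) were lower too. The corneal epithelium list was higher (0.601 to 0.889 against 0 to 0.443). None of the lists given here overlapped between the treated groups, and the remaining lists did. Of all single genes tested in this muscle, 39.2% did not overlap. In the dilator, iris PE, sphincter 2, CB and stroma 1 lists no marker was at 0 in every library. These lists share members, so their falls are not separate. Myh11, itself lower when dilated, belongs to the dilator, sphincter 2 and CB lists. Adra1a is in the dilator and sphincter 2 lists, and Pax6 in the iris PE and CB lists. Among their members Chrm2, Myh11 and Tyr were called lower and Otx2 higher. Their part in the dilator results was not tested.

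Immediate early genes moved together in dilator muscle. Of 10 listed AP-1 genes 7 were tested (Fos, Fosl1, Fosl2, Jun, Junb, Jund and Atf3), and all 7 rose in dilated nuclei. Their median log2 change was 2.38 beside -0.01 over all genes. Fosl1 was the least certain, with overlapping groups and an adjusted p of 0.0485 by edgeR. Jund, at 199 and 243 in dilated against 56.3, 90.8 and 160 in constricted libraries in CPM, had an adjusted p of 0.0279 with edgeR and 0.0671 with DESeq2. Of 15 tested genes of the EGR, IER, NR4A and KLF families and their like, from a list of 22, 10 rose and none fell. The low-count filter kept a gene with enough UMIs in as few as 2 libraries. A gene high only in the 2 dilated libraries could thus be tested, and such a gene could not be called lower. Counts of list members that rose, here and in the other lists and cell types, are therefore a description. Over all genes tested in this muscle, 5.59% were higher and 4.87% lower. Egr1, a zinc finger factor, stood at 83.9 and 255 CPM in the 2 dilated libraries, at 1.94, 6.2 and 2.13 in the 3 constricted ones and at 12.5, 2.67 and 2.21 in control. The dilated libraries lay far above the other 6, a log2 fold change of dilated over constricted of 6.05 ± 0.63 (SE; adjusted p = 9.81e-05).

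The 2 dilated libraries did not carry this group to the same height. Fos, a partner in AP-1, was at 14.7 and 180 CPM in dilated 1 and 2, and at 1.94, 3.54 and 0.711 in constricted libraries (log2 change 5.94 ± 1.01, adjusted p = 0.00233). Btg2, an antiproliferative partner of the mRNA deadenylase complex, was at 140 and 1025 CPM against 8.13, 13.7 and 18.9 (log2 change 5.67 ± 0.68, adjusted p = 0.000257). For both genes dilated 1 lay above every constricted library, and dilated 2 lay far above dilated 1. All 7 AP-1 genes were higher in dilated 2, by a median ratio of 3.64, and 8 of the 10 called EGR, IER, NR4A and KLF genes were, by a median ratio of 2.9. Over all 861 higher genes, 438 were higher in dilated 2 and the median ratio was 1. Dilated 1 is also the library with the larger mitochondrial share. Any part of that in the difference was not tested.

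Nuclear receptors of the NR4A family followed the same order. Nr4a1 was at 50.5 and 400 CPM in dilated and 7.36, 8.86 and 9.71 in constricted dilator nuclei. Nr4a2 was at 11.1 and 110 against 2.52, 2.22 and 1.9, and Nr4a3 at 3.06 and 44.9 against 0.194, 0 and 0.237. The log2 changes of the first 2 were 4.94 ± 0.67 and 4.97 ± 0.82, while Nr4a3 held too few constricted UMIs for a stable fold. In each of the 3 genes the groups did not overlap, although dilated 1 was closer to the constricted libraries than to dilated 2. Ier2, an immediate early gene, was at 12.5 and 54.5 against 0.581, 0.443 and 2.37 CPM (log2 change 4.97 ± 0.72). Junb, the AP-1 member with the largest number of calls across cell types, was at 104 and 486 against 13.4, 9.75 and 26.8 (log2 change 4.32 ± 0.56, adjusted p = 0.000447).

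A list of feedback regulators of the ERK kinase pathway, to which Tmem158 was added, had 8 of 13 tested genes higher and none lower. Over all genes, 5.59% were higher and 4.87% lower. Spred2, an inhibitor of RAF activation, was at 83.9 and 54.9 CPM in dilated and 10.4, 4.88 and 4.03 in constricted nuclei (log2 change 3.52 ± 0.33). Dusp1, a phosphatase of MAP kinases, was at 19.6 and 63.1 against 4.07, 6.2 and 11.8 (log2 change 2.66 ± 0.53). Tmem158, a membrane protein induced by RAS, was at 187 and 213 against 13.2, 11.5 and 19.4 (log2 change 3.92 ± 0.23, adjusted p = 1.84e-06). Unlike the AP-1 genes, Tmem158 was near the same level in both dilated libraries.

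Among phosphodiesterases, Pde10a changed most and stood at nearly 1 level in both dilated libraries. Pde10a, which hydrolyses both cAMP and cGMP, was at 1305 and 1338 CPM in the dilated libraries, 28.3, 19.9 and 13.3 in the constricted ones and 27.4, 17.6 and 15.8 in control. The constricted and control ranges overlapped and the dilated libraries stood alone (log2 change 6.18 ± 0.26, adjusted p = 1.84e-07). The gene spans chr17:8525372-8986648 on the plus strand (GRCm38, GENCODE annotation). After thinning every dilator nucleus to 1000 UMIs, 56.5% and 52.5% of nuclei in the dilated libraries held a Pde10a UMI, against 2.55%, 2.11% and 1.2% in the constricted ones. Without thinning the shares were 80.3% and 75.9% against 8.37%, 9.37% and 4.12%, at median depths of 3800, 3660, 3120, 5300 and 3030 UMIs. Free RNA can give part of such shares. Leukocyte nuclei of the dilated libraries, set beside them for that reason, held a Pde10a UMI in 16.1% of 62 and 9.38% of 32 thinned nuclei. Unthinned, the shares were 25% of 68 and 14.7% of 34 nuclei, at median depths of 1870 and 1840 UMIs. Of these leukocyte nuclei, 9 in dilated 1 and 2 in dilated 2 were marked as doublets and kept, so doublets may add to these shares. Nuclei below 1000 UMIs were left out, at most 4 per library in dilator muscle and 6 in leukocytes of these 5 libraries. Egr1 UMIs were in 6.51% and 20.5% of thinned dilator nuclei when dilated, and in 0.0622%, 0.703% and 0.0749% when constricted (19.1% and 52.1% against 0.496%, 0.937% and 0.374% unthinned), beside 1.47% and 2.94% of unthinned leukocyte nuclei in the dilated libraries.

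Of 21 tested phosphodiesterase genes, 6 rose in dilated dilator nuclei and none fell, with a list median of 0.11. Over all genes tested there, 5.59% rose and 4.87% fell. Pde7b, a cAMP enzyme, was at 375 and 164 CPM against 65.6, 69.6 and 33.9 (log2 change 2.42 ± 0.32). Pde3b, a cAMP enzyme that cGMP inhibits, was at 60.1 and 102 against 14.3, 13.3 and 20.6 (log2 change 2.50 ± 0.31). Pde8a and Pde4b rose by 2.04 and 1.88 on the log2 scale. Pde1c, a calmodulin-dependent enzyme, rose by 0.77, from 595, 622 and 370 to 918 and 693 CPM, with an adjusted p of 0.0254 that rose above 0.05 with only the 5 treated libraries (0.0673), with total UMI scaling (0.0978) or without dilated 1 (0.142). Pde4d, a cAMP enzyme, was at 2157 and 2266 CPM dilated and 2676, 3446 and 2818 constricted, a log2 difference of -0.26 ± 0.16 (adjusted p = 0.364).

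Around cAMP itself, 8 of 28 tested genes rose and none fell, beside 5.59% and 4.87% of all genes tested. Sik1, a kinase that CREB induces and that restrains the CREB coactivators, was at 37.7 and 205 CPM against 6.39, 5.32 and 7.11 (log2 change 4.45 ± 0.58). Its relatives Sik2 and Sik3, the regulatory subunit gene Prkar1a and the CREB repressor gene Crem were also called, Crem at 95.6 and 112 against 62.5, 78 and 62.8 (log2 change 0.80 ± 0.17).

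**Figure D2:**
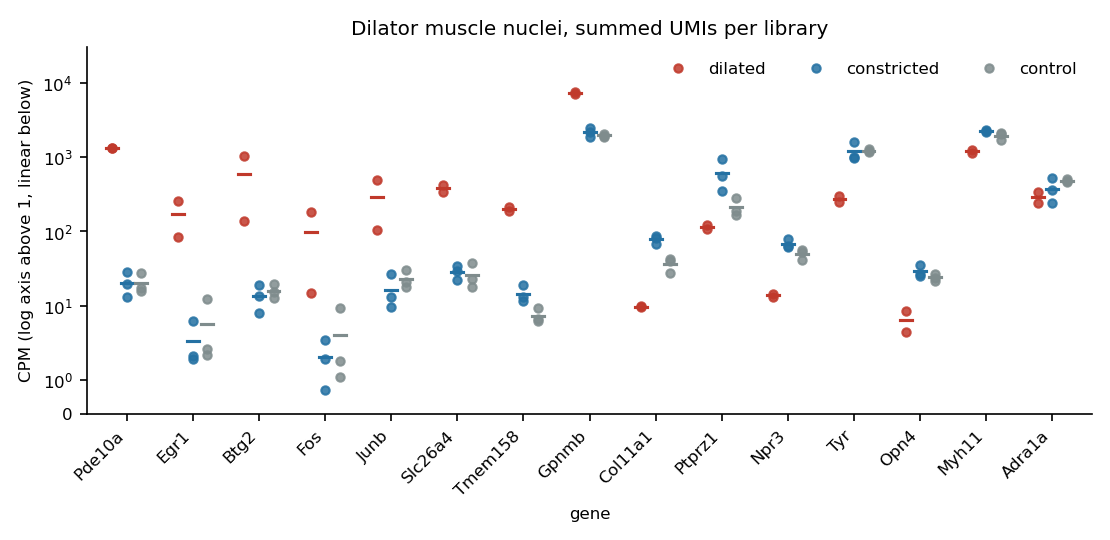
CPM in dilator muscle nuclei for 15 genes, on a vertical axis that is logarithmic above 1 and linear below it; each point is a library (2 dilated, 3 constricted, 3 control) and each bar the mean of the group. Pde10a, Slc26a4, Tmem158 and Gpnmb sit close together in the 2 dilated libraries, while Btg2, Fos and Junb are far apart there, and Adra1a overlaps between dilated and constricted.

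Other large increases in dilator muscle belonged to genes of varied function. Hk2, a hexokinase, was at 32.2 and 39.3 CPM dilated against 0.968, 0.886 and 0.474 constricted (log2 change 5.67 ± 0.35). Slc26a4, an anion exchanger that carries chloride, iodide and bicarbonate, was at 420 and 339 against 29.8, 34.6 and 22 (log2 change 3.91 ± 0.26, adjusted p = 4.17e-06). For Hk2 and Slc26a4 the dilated libraries lay close together and clear of all others. Anks1b, a synaptic adaptor in neurons, was at 566 and 502 against 110, 120 and 58.5 (log2 change 2.65 ± 0.26). Gpnmb, a melanosomal glycoprotein, went from 1859, 2172 and 2420 to 7086 and 7431 CPM (log2 change 1.93 ± 0.17), and Penk, the enkephalin precursor, from 19.6, 25.7 and 18.7 to 54.2 and 93.8 (log2 change 2.00 ± 0.27).

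Col11a1 and Ptprz1 were among the largest falls in dilated dilator muscle. Col11a1, a fibrillar collagen chain, was at 9.58 and 10 CPM dilated, 67.8, 86 and 82.2 constricted and 43, 27.7 and 39.7 in control (log2 change -2.84 ± 0.23, adjusted p = 1.93e-05). Ptprz1, a receptor phosphatase for pleiotrophin, was at 108 and 121 dilated, 354, 930 and 551 constricted and 282, 169 and 187 in control (log2 change -2.25 ± 0.35). For both, the control libraries lay between the treated groups, and constricted libraries were the highest of the 8. Neither was called for constricted against control, where Serpina3n was the only call in dilator muscle. Ptprz1 UMIs were in 8.93% and 10.5% of thinned dilated nuclei and in 23.1%, 42.4% and 32.4% of constricted ones (24.1% and 28.3% against 46.6%, 73.5% and 57% unthinned), beside at most 5.71% of unthinned leukocyte nuclei in any of the 5 libraries. Npr3, the natriuretic peptide clearance receptor, was at 13.3 and 14.6 against 62.1, 64.7 and 79.8 CPM (log2 change -2.14 ± 0.20). Emilin3, Plk5, Nckap5, Folh1 and Car14 fell by 2.59, 2.15, 2.12, 2.12 and 2.11 on the log2 scale. They were picked from called genes without overlap between the groups, so their lack of overlap adds no support. Of all genes tested in this muscle, 39.2% did not overlap.

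Melanopsin and tyrosinase were among the lower genes. Opn4, the melanopsin gene, stood at 8.69 and 4.41 CPM in dilated, 36, 26.6 and 25.1 in constricted and 21.8, 27 and 23.7 in control dilator nuclei (log2 change -1.95 ± 0.26, adjusted p = 0.000559), the only call among 3 opsin genes tested. Tyr, the rate-limiting enzyme of melanin synthesis, was at 299 and 253 against 998, 1589 and 976 CPM (log2 change -1.94 ± 0.22), and Dct, a later enzyme of the pathway, moved the other way at 7463 and 7952 against 5859, 5356 and 4422 (log2 change 0.74 ± 0.15). Of 12 tested melanin genes, 2 rose, 1 fell and 9 were not called, beside 5.59% higher and 4.87% lower over all genes tested.

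Receptor and contractile genes were called in both directions, beside 10.5% of all genes called in dilator muscle. Among 7 tested adrenergic and muscarinic receptors, Adra1b rose (43.6 and 42.9 CPM dilated, 32.7, 27.9 and 23.2 constricted, log2 change 0.80 ± 0.18) and Chrm2 fell (293 and 213 against 623, 538 and 325, log2 change -0.80 ± 0.22). Adra1a, the alpha-1 receptor that marks this muscle, was at 344 and 243 against 523, 358 and 238, with overlapping groups and a log2 difference of -0.18 ± 0.24 (adjusted p = 0.71). Of 29 tested smooth muscle contractile genes, 6 rose (Vim, Cald1, Tpm4, Vcl, Actn1 and Myh9), 2 fell (Myh11 and Synpo2) and 21 were not called. Myh11, the smooth muscle myosin heavy chain, was at 1140 and 1246 against 2168, 2341 and 2251 CPM (log2 change -0.74 ± 0.17). Calcium handling genes split, with Atp2a2, Orai1, Atp2b1 and Cacna2d3 higher, Casq1, Stim1, Cacna1d and Cacnb3 lower, and 25 of 33 not called.

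Of further lists in dilator muscle, heat shock and chaperone genes had 6 of 19 higher, glucocorticoid-responsive genes 6 of 16, amino acid and unfolded protein response genes 6 of 14, and inflammatory and acute phase genes 5 of 9, with none lower in these 4 lists. YAP and stretch targets had 6 of 16 higher and 2 lower, matrix and collagen genes 5 of 29 higher and 1 lower, neuron-type secretory genes 5 of 11 higher and 1 lower, clock genes 3 of 21 higher and 2 lower, nitric oxide and cGMP genes 2 of 15 higher and 2 lower, G protein and RGS genes 2 of 28 higher and 1 lower, and BTG and TOB genes 1 of 5 higher. Over all genes tested, 5.59% were higher and 4.87% lower. Of the named genes in them, Mat2a, the synthase of S-adenosylmethionine, was at 511 and 1277 CPM against 118, 108 and 161 (log2 change 2.99 ± 0.33).

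Iris PE, the layer that adjoins the dilator, showed a smaller set of changes. Btg2 was at 62.4 and 119 CPM dilated, 4.93, 6.56 and 4.49 constricted and 16.7, 16.9 and 9.24 in control (log2 change 4.18 ± 0.37, adjusted p = 0.000132). Junb was at 248 and 290 dilated, 19.4, 27.9 and 27.3 constricted and 51.8, 125 and 74.8 in control (log2 change 3.50 ± 0.31), and Fos at 44.5 and 76 dilated, 2.3, 2.46 and 4.49 constricted and 23.4, 12.1 and 6.75 in control (log2 change 4.26 ± 0.46). In these 3 genes the controls sat between the treated groups, and the constricted libraries were the lowest. None of them was called for constricted against control. Pde10a was at 383 and 296 against 35.8, 33.6 and 12.7 (log2 change 3.70 ± 0.29). Hist4h4, a histone H4 gene, was at 31.4 and 9.93 against 0.657, 0.82 and 1.12. AP-1 had 4 of 7 tested genes higher, the EGR, IER, NR4A and KLF list 4 of 12, and phosphodiesterases 3 of 18, with none lower, beside 0.411% higher over all genes tested. The summed iris PE markers ran from 4800 to 4880 CPM in dilated and from 5880 to 6190 in constricted iris PE nuclei, with Tyr the called member, and those of stroma 1 from 718 to 804 against 1030 to 1240. Their part in these results was not tested.

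In the leading lower genes of iris PE the constricted libraries stood above control as well as above dilated. Npr3 was at 21 and 33.2 CPM dilated, 124, 170 and 167 constricted and 76.9, 86.5 and 98.4 in control (log2 change -2.50 ± 0.25, adjusted p = 0.000341). Ptchd4, a patched-domain protein, was at 35.5 and 38 dilated, 158, 249 and 195 constricted and 76.1, 67.4 and 92.2 in control (log2 change -2.41 ± 0.23), and Col11a1 at 34.1 and 29.1 dilated, 129, 154 and 113 constricted and 86.1, 81.2 and 84.8 in control (log2 change -2.01 ± 0.18). In each the order was dilated, control, constricted with no overlap between neighbours. None of these genes was called for constricted against control, where Serpina3n was the only call among 14128 genes tested. They were picked for their change between dilated and constricted libraries. Smoc2, a matricellular calcium-binding protein, fell by 2.34, and Tyr by 1.23, on the log2 scale.

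A joint fit of both layers, with a term for each library, tested whether the change differed between them. It did for 1205 of 16283 genes (7.4%). Pde10a changed less in iris PE, by a difference of -2.42 ± 0.199 on the log2 scale (adjusted p = 1.19e-08), and so did Hk2 (-4.9 ± 0.524), Tmem158 (-2.35 ± 0.269), Egr1 (-2.37 ± 0.67), Gpnmb (-1.58 ± 0.104) and Vim (-1.34 ± 0.135). The differences for Btg2 (-0.921 ± 0.699), Fos (-0.981 ± 1.2), Junb (-0.328 ± 0.52) and Npr3 (-0.355 ± 0.196) did not pass the test. Of the genes called in both layers, 51 had the same direction and 1 did not. That gene, Kcnn2, a calcium-activated potassium channel named after its values were seen, was at 212 and 384 CPM dilated and 54.2, 47.5 and 106 constricted in iris PE, and at 18.8 and 24.1 dilated and 55.6, 55.4 and 47.1 constricted in dilator muscle, a difference of 3.2 ± 0.26.

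In sphincter 1, the muscle that closes the pupil, lower genes outnumbered higher ones. Ldb3, Myl1, Dmpk and Klhl41 are named here after their values were seen. Striated muscle genes were not counted as a list, so no share of them is given. The summed sphincter 1 markers, with the sarcomere gene Ttn and the muscle gene Ckm among them, overlapped between the treated groups. They ran from 10400 to 11800 CPM in dilated and from 10200 to 15400 in constricted libraries. Ldb3, a protein of the sarcomere's Z-disc, was at 131 and 108 CPM dilated, 497, 460 and 358 constricted and 436, 234 and 272 in control (log2 change -1.86 ± 0.27, adjusted p = 0.000226). Myl1, a skeletal myosin light chain, was at 19.1 and 16.1 dilated, 92.2, 72.6 and 169 constricted and 69.9, 68.6 and 105 in control (log2 change -2.70 ± 0.44). Dmpk, a muscle kinase, was at 51.8 and 62.3 dilated, 263, 393 and 375 constricted and 210, 160 and 172 in control (log2 change -2.55 ± 0.29). In all 3 genes the dilated libraries were the 2 lowest of the 8. Myf6, a myogenic transcription factor, had no UMI in the dilated libraries and was at 23, 48.4 and 73 CPM in constricted and 48.4, 28.7 and 38.8 in control, which makes it at least 12.8-fold lower against a floor of 3 UMIs over both dilated libraries. Synpo2l and Klhl41, sarcomere-associated proteins, fell by 3.78 and 2.99, and Trim36, a ubiquitin ligase, by 3.69.

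Smooth muscle genes of sphincter 1 were called at a share near that of all genes. Of 29 tested contractile genes, Tagln alone was called, at 1538 and 1708 against 796, 496 and 806 CPM (log2 change 1.21 ± 0.22), beside 3.7% of all genes tested. Myh11 was at 3624 and 2995 CPM in dilated and 3462, 3892 and 3168 in constricted sphincter 1 nuclei, Acta2 at 1077 and 1357 dilated and 1122, 1223 and 1433 constricted, and both overlapped between groups (log2 differences -0.08 ± 0.19 and -0.04 ± 0.22). The iris PE and CB marker lists share Pax6. The summed iris PE markers ran from 2470 to 2630 CPM in dilated and from 1040 to 1960 in constricted sphincter 1 nuclei, those of CB from 5760 to 6620 against 4910 to 5620, and those of stroma 1 from 265 to 300 against 388 to 460. Their part in these results was not tested.

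Further called genes of sphincter 1 came from the lists of receptors, calcium handling, cGMP and G protein signalling, beside 2.66% of all genes lower and 1.04% higher. Chrm2, a muscarinic receptor coupled to Gi, was at 49.1 and 46.1 CPM dilated, 326, 466 and 209 constricted and 333, 274 and 338 in control (log2 change -2.75 ± 0.33, adjusted p = 2.6e-05). Chrm3, the Gq-coupled receptor that drives contraction, was at 5203 and 3971 against 4601, 3420 and 2415 (log2 difference 0.41 ± 0.22, adjusted p = 0.46), with overlapping groups. Calcium handling had 3 of 23 tested genes lower and none higher. They were Casq2, a calcium store protein (21.8 and 32.3 against 102, 170 and 116 CPM, log2 change -2.16 ± 0.36), Atp2a2, the store's calcium pump (-1.41), and Slc8a1, a sodium-calcium exchanger (-1.11, adjusted p = 0.0493). Gucy1a1, a subunit of the nitric oxide receptor, was at 24.5 and 25.4 against 122, 176 and 159 CPM (log2 change -2.56 ± 0.38), and Mrvi1, a cGMP kinase substrate, fell by 1.16. Of 15 tested G protein and RGS genes, 1 fell and 1 rose, and both products speed G protein inactivation. Rgs7 was at 40.9 and 27.7 against 148, 230 and 106 CPM (log2 change -2.16 ± 0.38), and Rgs9 at 125 and 99.2 against 32.9, 48.4 and 29.9 (log2 change 1.67 ± 0.32).

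Among the higher genes of sphincter 1 stood Pde3b, at 101 and 143 CPM dilated, 6.58, 18.2 and 19.9 constricted and 16.1, 20.7 and 12.6 in control (log2 change 3.09 ± 0.43, adjusted p = 0.000107). Pde10a was at 177 and 148 dilated, 52.7, 72.6 and 29.9 constricted and 10.8, 20.7 and 20.8 in control (log2 change 1.74 ± 0.31), and Col11a1 at 95.5 and 32.3 dilated, 13.2, 0 and 6.63 constricted and 10.8, 30.3 and 18.1 in control (log2 change 2.97 ± 0.66). For Pde10a the constricted libraries lay between control and dilated. Fbln1, a matrix glycoprotein, and Thbd, thrombomodulin, rose by 2.81 and 2.56. Arr3, cone arrestin, was at 5.45 and 0 against 6.58, 42.4 and 103 CPM, a fall whose adjusted p of 0.0237 became 0.127 with DESeq2 and 0.213 without dilated 2.

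The opposing muscles moved a set of genes in opposite directions. Of 7068 genes tested in both, 869 were called in dilator muscle and 248 in sphincter 1. They shared 71, of which 31 had the same direction and 40 the opposite. In a joint fit the test of the difference was passed by 963 of 13060 genes (7.37%). The 40 were picked from calls in the same libraries, so their differences are given as a description. Higher in dilated dilator and lower in dilated sphincter 1 were 25 genes. Rgs7 was at 31.5 and 23.2 CPM dilated and 9.1, 10.2 and 4.5 constricted in the dilator, the reverse of the order above (difference of the log2 changes -4.08 ± 0.355). Gucy1a1 was at 21.8 and 16.8 against 13.6, 11.1 and 11.8 in the dilator (difference -3.31 ± 0.375), and Atp2a2 at 384 and 406 against 238, 272 and 277 (difference -2.1 ± 0.201). Csrp2, a LIM protein of muscle, Dmpk, the integrin gene Itga7 and the muscle factor gene Mef2c, all named after their values were seen, belonged to the same 25.

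The other 15 genes were lower in dilated dilator and higher in dilated sphincter 1. Col11a1 had the largest difference of those named, 5.9 ± 0.549. Unc13c, a presynaptic priming factor, was at 730 and 636 CPM dilated against 1698, 2025 and 1434 constricted in dilator muscle and at 417 and 205 against 145, 115 and 159 in sphincter 1 (difference 2.25 ± 0.247). In genes that moved the same way, the rise was smaller in sphincter 1 for Pde10a (difference -4.38 ± 0.403) and Junb (-1.97 ± 0.532), and Chrm2 fell further there (-1.89 ± 0.291). Btg2 was not called in sphincter 1 (log2 change 1.20 ± 0.47) and its change differed from that in the dilator by -4.39 ± 0.528. The difference for Pde3b was 0.682 ± 0.486 and did not pass the test.

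**Figure D3:**
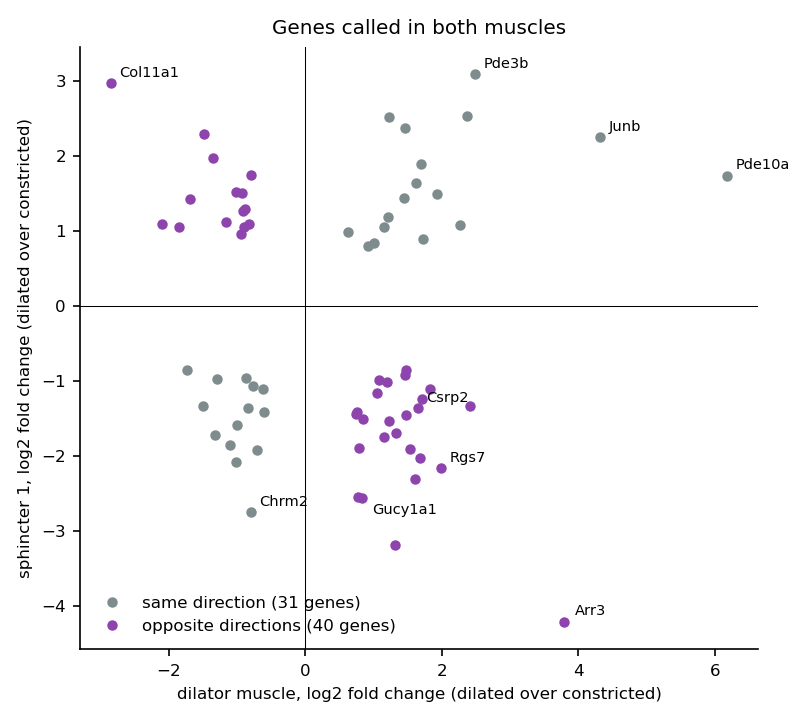
Log2 fold change of dilated over constricted irises in dilator muscle (horizontal) and in sphincter 1 (vertical) for the 71 genes called in both, each point a gene. The 31 grey genes have the same direction and the 40 purple ones opposite directions, led by Col11a1 at the upper left and by Rgs7, Gucy1a1 and Arr3 at the lower right.

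In sphincter 2, the second sphincter population, 162 of 164 called genes did not overlap between the treated groups, beside 26.4% of all genes tested there. The genes were called in these same libraries, so this adds no support to the calls. Pde10a was at 392.6 and 391.8 CPM dilated, 32.5, 14.4 and 8.44 constricted and 45.8, 2.08 and 19.3 in control (log2 change 4.30 ± 0.40, adjusted p = 9.54e-09). Tmem158 was at 396 and 644 dilated, 32.5, 0 and 46.4 constricted and 9.16, 37.5 and 57.8 in control (log2 change 4.15 ± 0.38), and Cadps, a factor of dense-core vesicle release, at 411 and 480 dilated, 42.2, 50.5 and 54.9 constricted and 45.8, 83.2 and 117 in control (log2 change 3.25 ± 0.29). These 3 genes were high in both dilated libraries and in no other. Mest, an imprinted gene, was at 44.5 and 174 against 9.74, 14.4 and 12.7 (log2 change 3.26 ± 0.59), and Nr4a2 at 40.8 and 81.8 against 3.25, 0 and 4.22, both with dilated 2 the higher. The summed sphincter 1 markers ran from 1910 to 2270 CPM in dilated and from 3190 to 3640 in constricted sphincter 2 nuclei, its own from 6780 to 7160 against 8330 to 9150, and those of stroma 1 from 409 to 537 against 625 to 693. The sphincter 1 and sphincter 2 lists share Chrm3 and Syt1, so their falls are not separate. These lists are among those that did not overlap between the treated groups, and their part in the results was not tested.

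The lower genes of sphincter 2 again included Ptprz1, at 88.9 and 71.5 CPM dilated, 773, 1148 and 857 constricted and 733, 196 and 124 in control (log2 change -3.46 ± 0.44, adjusted p = 6.5e-06). Control 1 lay with the constricted libraries for this gene, and the other 2 controls lay nearer to the dilated ones. Efemp1, a fibulin of the extracellular matrix, was at 3.7 and 3.41 against 45.5, 86.6 and 38 (log2 change -3.69 ± 0.75), Klhl14, a ubiquitin ligase adaptor, at 7.41 and 0 against 39, 43.3 and 42.2, and Kctd16, a GABA-B receptor subunit, at 51.9 and 6.81 against 244, 86.6 and 165. Tyr fell by 2.40 on the log2 scale. Phosphodiesterases had 3 of 11 tested genes higher (Pde1c, Pde3b and Pde10a) and none lower, beside 0.971% higher and 1.48% lower over all genes tested.

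Stroma 1, the stromal nuclei marked by Sox10 and Pax3, had 24 higher and 15 lower genes. Ntrk3, the neurotrophin-3 receptor, was at 180 and 120 CPM dilated, 39.5, 28.4 and 9.63 constricted and 10.8, 19 and 12.3 in control (log2 change 2.53 ± 0.34, adjusted p = 0.00134). Pde10a was at 774 and 540 dilated, 125, 214 and 177 constricted and 190, 183 and 88.1 in control (log2 change 1.95 ± 0.27), and Adam12, a metalloprotease, at 138 and 147 dilated, 49.7, 23.2 and 32.7 constricted and 52, 54.9 and 40 in control (log2 change 1.97 ± 0.26). For these 3 genes the constricted and control libraries overlapped and the dilated ones stood above both. Jun and Hes1, a Notch target, rose by 2.22 and 1.97. Among the lower genes, Brca1, a DNA repair gene, was at 148 and 148 against 415, 333 and 316 CPM (log2 change -1.26 ± 0.20), Ndrg1, a stress-responsive gene, fell by 1.22, Rps6ka5, a nuclear kinase, by 1.22, and Abhd6, a monoacylglycerol lipase, by 1.18. The count of calls in stroma 1 fell to 5 without dilated 2, 8 without constricted 2, 10 without constricted 1, 14 without control 3 and 18 without dilated 1 or control 2.

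Stroma 2, the stromal nuclei marked by Tfap2b, had 49 higher and 19 lower genes. Fst, the activin antagonist follistatin, was at 664 and 748 CPM dilated, 117, 8.61 and 40.7 constricted and 71.3, 45.7 and 34.8 in control (log2 change 3.65 ± 0.54, adjusted p = 0.0115). Thbs1, thrombospondin and a target of YAP, was at 167 and 118 dilated, 20.2, 11.8 and 8.53 constricted and 9.67, 7.19 and 3.96 in control (log2 change 3.40 ± 0.31). Col8a1, a network collagen, was at 412 and 308 dilated, 110, 139 and 115 constricted and 64.1, 76.6 and 67.9 in control (log2 change 1.61 ± 0.18). For Col8a1 the constricted libraries lay between control and dilated, and for Fst and Thbs1 they overlapped with control. Dusp1 was at 23.2 and 36.2 against 3.36, 1.08 and 3.28, and Tnfrsf11b, the decoy receptor osteoprotegerin, at 36.1 and 12.8 against 0, 2.15 and 1.31 CPM, a call on few constricted UMIs that was lost with DESeq2 (adjusted p = 0.191) and without any 1 of dilated 1 (0.259), constricted 1 (0.0896), constricted 2 (0.14), constricted 3 (0.0789) or control 2 (0.0512).

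Among the lower genes of stroma 2, Hmgcs1, an early enzyme of cholesterol synthesis, was at 19.1 and 19.3 CPM dilated against 54.4, 91.5 and 51.8 constricted (log2 change -1.72 ± 0.29), and Sez6l, a neuronal membrane protein, fell by 1.69. Both were picked from called genes without overlap between the treated groups. For Hmgcs1 the controls lay above the dilated libraries and overlapped with the constricted range. The summed endothelial markers ran from 637 to 813 CPM in dilated and from 158 to 328 in constricted stroma 2 nuclei, led by Cldn5 (373 and 631 against 158, 51.7 and 82), itself a called gene, while Pecam1 was at 26.7 and 30.4 against 38.1, 22.6 and 16.4. The summed sphincter 2 markers there ran from 217 to 290 against 86.1 to 173, and those of stroma 1 from 216 to 220 against 132 to 188. None of the 7 endothelial markers was at 0, and the part of these lists in the result was not tested. Stroma 2 had 6 called genes without constricted 2 and 30 without control 2.

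In a joint fit of both stromal types the change differed in 113 of 12620 genes (0.895%). The change of Pde10a was lower in stroma 2 than in stroma 1 (difference -1.94 ± 0.288, adjusted p = 0.000377), and so was that of Ntrk3 (difference -2.65 ± 0.324), neither of them called in stroma 2. In stroma 2, Pde10a stood at 260 and 283 CPM dilated and 176, 645 and 167 constricted. Thbs1 rose more in stroma 2 (2.58 ± 0.532). The differences for Junb (0.605 ± 0.461), Jun (0.0821 ± 0.54), Hes1 (-0.663 ± 0.491), Fst (-2.85 ± 2.19) and Hmgcs1 (-0.989 ± 0.377) did not pass the test. Of the genes called in both stromal types, 2 had the same direction and none the opposite.

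In CB and CBE the group means of Pde10a ran from constricted as the lowest through control to dilated. In CB, Pde10a was at 3485 and 990 CPM dilated, 244, 96.3 and 133 constricted and 633, 558 and 527 in control (log2 change 3.83 ± 0.39, adjusted p = 1.25e-05), with no overlap between any of the 3 groups. Dilated 1 stood far above dilated 2. Pde3b was at 82 and 131 dilated, 12.4, 15 and 0 constricted and 17.3, 5.94 and 6.75 in control, and Jun rose by 2.52. In CBE, Pde10a was at 1113 and 313 dilated, 137, 53.1 and 30.5 constricted and 384, 159 and 177 in control (log2 change 3.15 ± 0.46), where control 1 lay above dilated 2 and the adjusted p rose from 0.00176 to 0.104 with DESeq2. Padi2, a peptidylarginine deiminase, was at 125 and 76.4 dilated, 23.2, 10.1 and 12.2 constricted and 49.8, 56.7 and 37.4 in control, and Mt1, a metallothionein, at 351 and 498 against 142, 68.3 and 189. Ch25h, which makes the oxysterol 25-hydroxycholesterol, was high in constricted CBE nuclei (44.1, 70.9 and 116 CPM) and low in dilated (16.3 and 14.8) and control (7.12, 18.9 and 12.5) ones. Shroom3, which constricts the apical side of epithelial cells, had the same pattern, at 237, 281 and 305 constricted, 120 and 104 dilated and 128, 168 and 166 in control. No gene was called for constricted against control in CB or CBE. CBE had 4 calls without control 2 and 5 without control 3. Without constricted 2, edgeR called no CBE gene.

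In leukocytes both called genes were phosphodiesterases that hydrolyse cAMP. Pde4b was at 366 and 911 CPM dilated, 162, 74 and 41.7 constricted and 33.1, 110 and 192 in control (log2 change 2.72 ± 0.51, adjusted p = 0.0444), and Pde3b at 1194 and 1347 dilated, 431, 340 and 438 constricted and 232, 424 and 433 in control (log2 change 1.65 ± 0.29, adjusted p = 0.0401). Without dilated 2 the adjusted p rose to 0.239 and 0.115, and without constricted 2 to 0.123 and 0.0894. Neither gene was called without constricted 3. Only 1 of the 2 was called with a term for the library number series, without control 1 or without nuclei of shared barcodes. The leukocytes of the 5 libraries numbered 194 nuclei.

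Across cell types, with predicted genes left out, most called genes were called in 1 type only. Higher genes numbered 801 in 1 type, 93 in 2 and 13 in 3, and lower genes 746, 89 and 11. Dilator muscle, the type with the most nuclei, held most of the calls, and these counts were not adjusted for that. Pde10a and Junb were each higher in 7 of the 10 cell types and Pde3b in 6. Jun followed with 5, Btg2, Hes1, Jund and Gpnmb with 4, and Fos and Nr4a1 with 3. Of the types with any call, those without one for Pde10a were stroma 2, where it was not called, and leukocytes, where it had too few UMIs to be tested. For Junb they were leukocytes, where it was not tested either, and stroma 1, where it was at 19.5 and 81.7 CPM against 10.3, 12.9 and 15.4 (adjusted p = 0.127). After thinning to 1000 UMIs, 19.1% and 15.8% of iris PE nuclei in the dilated libraries held a Pde10a UMI. In leukocytes 16.1% of 62 and 9.38% of 32 nuclei did. A part of free dilator RNA in the Pde10a calls of the other types was not tested. Gpnmb was called in dilator muscle, sphincter 1, sphincter 2 and CBE. In dilator muscle it reached 7086 and 7431 CPM, against 589 and 485 in sphincter 1 and 754 and 517 in CBE, and a part of free dilator RNA in the smaller values was not tested. Without doublets the CBE call was lost (adjusted p = 0.897). With predicted genes left out, no gene was called lower in dilated nuclei of more than 3 cell types.

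**Figure D4:**
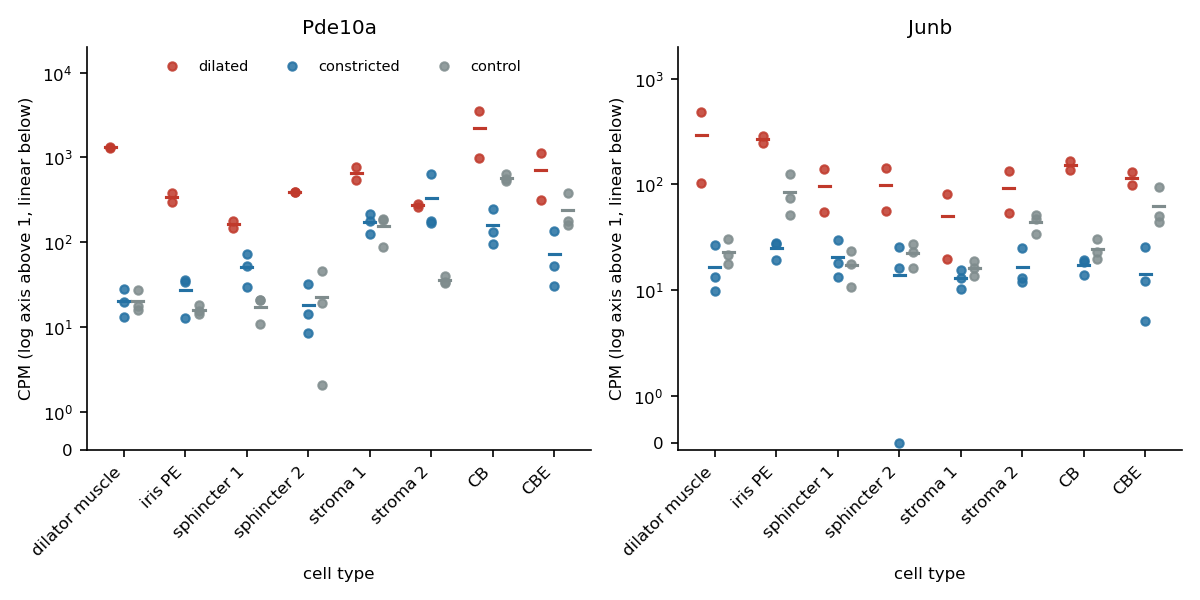
CPM for Pde10a (left) and Junb (right) in 8 cell types, on vertical axes that are logarithmic above 1 and linear below it; points are libraries and bars group means. Dilated libraries lie above all constricted ones in every pair except Pde10a in stroma 2, where constricted 2 reaches 645, and in CB the controls lie between the treated groups for Pde10a.

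In the main fit, transcripts moved alike by both drops outnumbered those that differed in leukocytes (5 against 2) and endothelial cells (7 against 0). They were fewer in the other 8 types. A gene was counted here where the mean of both drops against control was called, each drop had a log2 change past 0.6 in the same direction against control, and the direct comparison was not called. This held for 47 genes in dilator muscle (0.305%), 28 higher and 19 lower, for 22 in stroma 2 (0.172%), 16 higher and 6 lower, and for 17 in sphincter 2 (0.254%), 5 higher and 12 lower. The remaining types had 7 in endothelial cells (0.518%), 6 in stroma 1 (0.0673%), 5 in leukocytes (0.165%), 3 in iris PE (0.0212%), 2 in CB (0.0266%), 1 in sphincter 1 (0.0141%) and none in CBE. Both drugs are set against the same 3 controls, so the level of 1 control library moves both. Leaving out control 2 or control 3 gave 4 genes each in dilator muscle, leaving out constricted 1 gave 122, dilated 2 24 and constricted 2 31. Stroma 2 had 1 gene left without control 2 and 1 without control 3, and sphincter 2 had 3 and 1. Without constricted 2, stroma 2 had 15 genes moved alike against 6 that differed. In leukocytes the order turned, with 5 moved alike against 11 that differed by DESeq2 and 10 against 22 without doublets. Endothelial cells had 0 genes moved alike without doublets, and 0 without control 1, control 2 or control 3. The counts of genes moved alike and of genes that differed come from contrasts with unlike numbers of libraries. Genes called against control for each drop on its own, in the same direction, were Serpina3n in dilator muscle (1 gene, 0.0065% of those tested) and iris PE (0.00708%), Pcsk5 in sphincter 2 (0.0149%) and Col12a1 in stroma 2 (0.00782%).

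Serpina3n, an acute phase protease inhibitor, had the largest such change. In iris PE it was at 42.6 and 31.2 CPM dilated, 59.8, 45.1 and 49.8 constricted and 3.34, 1.79 and 1.6 in control, a log2 change against control of 4.30 ± 0.27 (adjusted p = 8.53e-06) for dilated and 4.76 ± 0.26 (adjusted p = 1.76e-06) for constricted. In dilator muscle it was at 48.6 and 54.3 dilated, 15.9, 11.5 and 15.9 constricted and 3.74, 1.55 and 0.791 in control, raised by both drops and further by dilation (dilated over constricted 1.98 ± 0.25). The difference of the dilated against constricted effect between the layers was -2.36 ± 0.207. Gria3, a glutamate receptor subunit, was at 144 and 120 CPM dilated, 86.1, 114 and 80.4 constricted and 59.3, 54.9 and 61.3 in control in iris PE.

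The named genes raised alike in dilator muscle were Mical2, Creb5, Tagln and Csrp1. Mical2, an actin oxidase, was at 10.5 and 14.4 CPM dilated, 16.3, 30.6 and 28.2 constricted and 9.97, 5.21 and 4.11 in control, and Creb5 at 55.1 and 47.3 dilated, 25, 93.1 and 60.6 constricted and 24.9, 18.2 and 20.6 in control. Tagln, the actin-binding protein transgelin, was at 978 and 1944 dilated, 619, 760 and 1059 constricted and 738, 357 and 372 in control, and the LIM protein gene Csrp1 at 195 and 497 dilated, 147, 219 and 271 constricted and 151, 117 and 119 in control. For Tagln and Csrp1 control 1 lay above the lowest constricted library, so those groups overlapped. Ccdc33 and Cngb3, a cone channel subunit, were lower under both, Cngb3 at 47.1 and 51.1 dilated, 81.9, 69.6 and 53.1 constricted and 133, 105 and 84.6 in control.

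In stroma 2, 221 genes (1.73%) were called for dilated and 2 (0.0156%) for constricted against control. Pde10a belonged to the genes raised alike, at 260 and 283 CPM dilated, 176, 645 and 167 constricted and 33.8, 40.4 and 33.4 in control, with log2 changes against control of 2.94 ± 0.49 and 3.17 ± 0.47 (adjusted p = 0.0112 and 0.0546). Col12a1, a fibril-associated collagen, was at 234 and 248 dilated, 246, 252 and 354 constricted and 120, 86.6 and 91.4 in control (log2 changes 1.35 ± 0.20 and 1.55 ± 0.19, adjusted p = 0.00763 and 0.0149). Every treated library lay above every control for both. Rbp4, the retinol carrier, was at 78.4 and 131 dilated, 52.1, 96.9 and 86.6 constricted and 33.8, 31 and 28.9 in control. Slc12a2, a sodium, potassium and chloride cotransporter, was at 1454 and 1548 dilated, 765, 393 and 329 constricted and 371, 202 and 146 in control, and Wnt2, a secreted Wnt ligand, at 10.5 and 18.7 dilated, 37.6, 34.5 and 47.2 constricted and 6.04, 4.69 and 6.79 in control. These last 2 were unequal under the drops without a call between them (adjusted p = 0.0675 and 0.0675), Slc12a2 higher when dilated and Wnt2 when constricted. Cntnap3, Lypd1, Col26a1 and Ttc6 were lower under both, Cntnap3 at 5.66 and 3.5 dilated, 7.85, 6.46 and 9.18 constricted and 15.7, 27.8 and 30 in control.

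In sphincter 2, 192 genes (2.87%) were called for dilated and 6 (0.0897%) for constricted against control, and 12 of the 17 genes moved alike were lower. Pcsk5, a proprotein convertase, was at 118 and 130 CPM dilated, 87.7, 130 and 169 constricted and 192, 308 and 393 in control (log2 changes -1.28 ± 0.28 and -1.31 ± 0.26), and Npsr1, the neuropeptide S receptor, at 55.6 and 27.2 dilated, 97.4, 79.4 and 42.2 constricted and 73.3, 279 and 168 in control. Itgb1, the beta-1 integrin, was higher under both at 296 and 303 dilated, 250, 260 and 274 constricted and 174, 142 and 166 in control, as were Col4a2, Tlcd2 and Gcnt2. Acad12, Adamts16 and Zfp804b were lower under both. In sphincter 1 the single gene was Xpo1, the nuclear export receptor, at 76.4 and 60 dilated, 72.4, 90.8 and 49.8 constricted and 140, 145 and 155 in control.

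In stroma 1, Mettl1, a tRNA methyltransferase, was at 50.1 and 58.4 CPM dilated, 17.1, 18.1 and 27 constricted and 10.8, 10.2 and 6.78 in control, and Ctsb, a lysosomal protease, at 224 and 238 dilated, 185, 134 and 183 constricted and 91.5, 108 and 108 in control, while Nlgn1 and Gria4, synaptic genes, were lower under both. In leukocytes, Clec2d, a C-type lectin, was at 176 and 211 dilated, 313, 296 and 417 constricted and 530, 705 and 687 in control, and Cmah, Hpgd and Arsb were lower as well, while Arhgap24 was higher. In CB, Hes5, a Notch target, was at 7.25 and 3.44 dilated, 4.14, 10.7 and 7 constricted and 54.9, 27.7 and 64.1 in control. The 7 genes of endothelial cells were all lower under both and included Npsr1, Tyr, Bnc2 and Kcnip4. The summed iris PE markers there ran from 653 to 968 CPM in dilated, 26.7 to 728 in constricted and 1140 to 1790 in control libraries. Their part in that result was not tested.

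**Figure D5:**
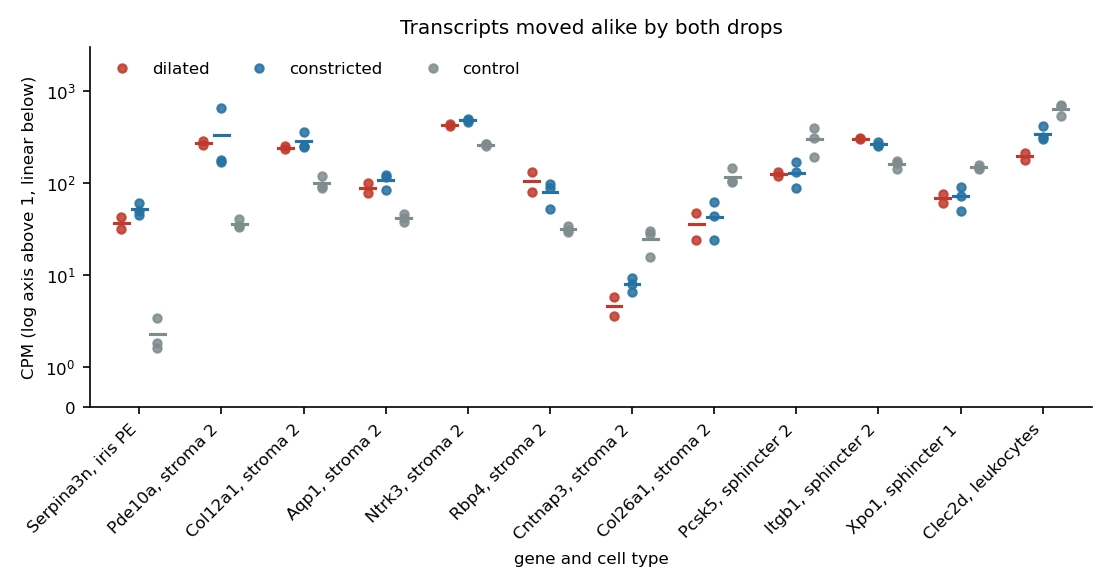
CPM for 12 pairs of gene and cell type moved alike by both drops, on a vertical axis that is logarithmic above 1 and linear below it; points are libraries and bars group means. Serpina3n in iris PE is at 1.6 to 3.34 in control and above every control value in each treated library, and for Clec2d in leukocytes every treated library lies below every control.

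The makeup of the nuclei gave no difference between the drug states that the design could call. Dilator nuclei were 35.2% ± 0.125 (SD, n = 2) of all nuclei in dilated and 36.8% ± 2.81 (SD, n = 3) in constricted libraries (exact permutation test over libraries, two-sided p = 0.6). Over the 10 cell types the exact p ran from 0.4 to 1, and 2 against 3 libraries cannot go below 0.2. With CB and CBE nuclei left out, iris PE reached 0.2, at 28.5% and 27.5% dilated against 27.1%, 23.2% and 27.4% constricted. Treated and control libraries did not overlap in 3 types. Dilator nuclei were 33.5% to 38.6% treated and 27.2% to 32.5% control, and stroma 1 nuclei 3.44% to 7.77% and 8.14% to 12.2%. Endothelial nuclei were 0.463% to 0.942% and 0.986% to 1.35%. These differences from control were not tested.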

How the data were processed

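Single nuclei of mouse iris were profiled with 10x Chromium 3′ v3 chemistry. According to the study's methods and the submitters' processing notes, the authors aligned reads with Cell Ranger 3.1.0 to an mm10 pre-mRNA index that counts exons and introns, removed nuclei with over 1% mitochondrial transcripts or with under 500 or over 6000 transcripts, and clustered and named cells in Seurat. The deposited tables hold raw UMI counts for 22873 genes and 34357 nuclei, and a deposited cell table gives each nucleus its library, its cell type and its mitochondrial percentage (percent). Deposited totals ran from 633 to 20494 UMIs and from 500 to 5956 genes per nucleus, so the stated transcript limits fit the genes per nucleus.

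UMIs were summed per library and deposited cell type in Python 3.11.15. edgeR 4.0.16 in R 4.3.3 (quasi-likelihood F test, TMM scaling, filterByExpr) was fitted on all 8 libraries within each cell type, with Benjamini-Hochberg adjustment over all genes tested there. Differences between cell types came from joint fits with a term for each library. The fit within a cell type was run on simulated counts for dilator muscle, sphincter 1 and leukocytes only. That run covered dilated against constricted, with the low-count filter off. The joint fits and the rule for genes moved alike were not simulated. A call needed a log2 change past 0.6 and an adjusted p below 0.05. CPM values are UMIs scaled to 1000000 UMIs of that cell type in the library, without TMM. Since introns were counted, levels were not compared between genes, and overlapping genes on opposite strands and near-identical paralogues may share reads. Replicates are pools of animals, and which libraries were prepared or sequenced together is not given in the sources used here. In dilator muscle, iris PE and stroma 2, the 3 types checked, every pair of replicates differed beyond counting noise.

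The cell type comparison, the gene lists and the named genes were chosen with earlier results of these data known. Named genes were the called ones with non-overlapping CPM and a mean of at least 20 CPM in the higher group, 8 per direction with the largest change in dilator muscle and 4 elsewhere, the 10 called in most cell types, 4 per direction and type among those moved alike, members of 21 response lists, and genes the study names; predicted genes were counted and not named, and some genes named by this rule are not reported here. In dilator muscle, deviations from the group means correlated at 0.602 for constricted 1 with dilated 1 but at -0.0123 for constricted 2 with dilated 2, so replicate numbers were not taken as a pairing. Constricted 3 with dilated 2, which follow each other in library number but differ in replicate number, correlated at 0.566. Deviations from a group mean cancel within the group, so those of dilated 1 and dilated 2 are exact opposites. These correlations are therefore tied to each other and are not separate signs of libraries deviating together. A caller marked 341 nuclei (0.993%) as doublets, which were kept and left out in an alternative. Thinned shares drew 1000 UMIs per nucleus. Alternatives covered scaling, filter, samples, terms for replicate or library number, DESeq2 1.42.0, doublets, shared barcodes and each library left out.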

Additional observations from a re-analysis of the deposited data

Results flagged for a closer look

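Each value below was singled out because the change from constricted to dilated irises differed between a pair of cell types in a joint fit with a term for each library (edgeR's quasi-likelihood test of the difference, adjusted over all genes of that fit). Values are differences of log2 changes with their SE. Groups held 2 or 3 libraries, too few to test for a library that stands apart. Genes called in opposite directions in a pair were picked from the same libraries, so their differences are a description.

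Between sphincter 1 and dilator muscle, the change was more negative in sphincter 1 for Pde10a (-4.38 ± 0.403), Btg2 (-4.39 ± 0.528), Junb (-1.97 ± 0.532), the G protein regulator Rgs7 (-4.08 ± 0.355), the nitric oxide receptor subunit Gucy1a1 (-3.31 ± 0.375), the cGMP kinase substrate Mrvi1 (-1.14 ± 0.201), the calcium pump Atp2a2 (-2.1 ± 0.201), the muscarinic receptor Chrm2 (-1.89 ± 0.291), and the muscle genes Dmpk (-3.24 ± 0.271) and Csrp2 (-2.88 ± 0.214). It was more positive for Col11a1 (5.9 ± 0.549) and Unc13c (2.25 ± 0.247). The largest adjusted p among these 12 was that of Junb, 0.00791.

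Between iris PE and dilator muscle, the change was smaller or lower in iris PE for Pde10a (-2.42 ± 0.199), Egr1 (-2.37 ± 0.67, adjusted p = 0.0229), Hk2 (-4.9 ± 0.524), Tmem158 (-2.35 ± 0.269), Gpnmb (-1.58 ± 0.104), Vim (-1.34 ± 0.135) and Serpina3n (-2.36 ± 0.207), and Kcnn2 went the other way (3.2 ± 0.26).

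Between stroma 2 and stroma 1, the change was lower in stroma 2 for Pde10a (-1.94 ± 0.288) and the neurotrophin receptor Ntrk3 (-2.65 ± 0.324), and higher for Thbs1 (2.58 ± 0.532, adjusted p = 0.0104).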

How the results depend on the processing

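In dilator muscle the count of genes called between dilated and constricted irises stayed within 1.5 times of 1610 under every alternative that kept all treated libraries, from 1133 with only the 5 treated libraries to 2302 with a term for the library number series, and no named result changed direction. In the other types it moved further. With only the 5 treated libraries, iris PE had 63 calls, sphincter 1 175, stroma 1 19, stroma 2 36, and CB, CBE, leukocytes and endothelial cells together 33. With the library number series, iris PE had 218, stroma 1 102 and stroma 2 175. DESeq2 gave 164 in iris PE, 108 in sphincter 2 and 163 in stroma 2. Without a filter on low counts there were 247 in iris PE, 126 in stroma 1, 411 in stroma 2 and 133 in the last 4 types, which had 40 without doublets. Genes moved alike numbered 180 in dilator muscle, 57 in sphincter 2, 134 in stroma 2 and 167 in the other 7 types with the library number series, 8, 59 and 37 in the last 3 of these with DESeq2, and 38, 150 and 210 without the filter. The difference between stromal types was called for 56 genes with only the 5 treated libraries. Thinned to 2000 UMIs, dilated exceeded constricted dilator nuclei by 63.8 percentage points for Pde10a and 23.5 for Egr1.

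A replicate block gave 145 calls in iris PE, 114 in stroma 2 and 66 in the last 4 types, and 91 genes moved alike in dilator muscle, 31 in sphincter 2, 70 in stroma 2 and 45 in the other 7 types. Under the block, Arr3 (adjusted p = 0.0608) and Jun (0.0713) in sphincter 1 and Hes1 in stroma 1 (0.0563) were no longer called. Replicate numbers were not taken as a pairing, given the correlations of deviations from the group means in dilator muscle. These were 0.602 for constricted 1 with dilated 1 and -0.0123 for constricted 2 with dilated 2. Control 1 correlated at 0.187 with constricted 1 and at 0.172 with dilated 1. The correlations are tied to each other, as described above.

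Leaving out 1 library at a time gave 873 to 1862 calls in dilator muscle, 22 to 123 in iris PE, 111 to 269 in sphincter 1, 53 to 177 in sphincter 2, 5 to 40 in stroma 1, 6 to 77 in stroma 2 and 8 to 30 in the last 4 types. Genes moved alike ranged from 4 to 122 in dilator muscle, 1 to 24 in sphincter 2, 1 to 35 in stroma 2 and 6 to 47 in the other 7 types. Of 104 named calls between dilated and constricted irises, 69 held without dilated 2 and 69 of 103 without constricted 2. Of 39 named genes moved alike, 4 of 38 with a value held without control 2, and as many without control 3. The cause was not tested. How far depth and the number of nuclei limit the calls in the smaller types was not tested.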
